A study of Mus musculus with 6 samples.

Results

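AMP-activated protein kinase (AMPK) is a cellular energy sensor built from 1 catalytic alpha, 1 scaffold beta and 1 regulatory gamma subunit. The gene set described here holds the 7 subunit genes and 2 upstream kinase genes, 9 of the 17720 genes measured. The genes were chosen by name, with earlier results of these arrays known, and Prkag3 was already known to be among the genes with the largest difference between marrow-derived and white adipocytes. Its levels are therefore given as a description, with no test. Where a gene had several probe sets, its main probe set was selected on the highest mean over the 6 arrays, which uses no group label. The 9 genes had 22 probe sets between them.

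In AMPK the alpha subunit carries the kinase domain, the beta subunit holds the complex together and binds glycogen, and the gamma subunit binds AMP, ADP and ATP. The kinase is switched on when LKB1 (gene Stk11) or the calcium-dependent kinase CaMKK2 phosphorylates the alpha subunit. In adipocytes AMPK is known for phosphorylating acetyl-CoA carboxylase and hormone-sensitive lipase, and so for acting on fat synthesis and fat breakdown. The alpha and beta subunits have 2 isoforms each and the gamma subunit has 3, each from its own gene, and the gamma3 isoform is best known from skeletal muscle.

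RNA from sorted mouse adipocytes was hybridised to 6 oligonucleotide arrays, 2 per group. Bone marrow-derived adipocytes were sorted from the floating cells of gonadal fat of mice that had been transplanted with marrow, by donor marker: green fluorescent protein (GFP, replicate 1) or beta-galactosidase (LacZ, replicate 2). Gonadal fat also gave the white adipocytes, and the dorsal depot that the labels call intrascapular gave the brown ones. Each sample pooled at least 6 sorts of about 5000 cells, and the RNA was amplified before labelling. The labels call the arrays of a group biological replicates but name no separate animals, so p-values measure only the spread between these samples, which may be technical. Neither sex, nor age, nor strain is given there.

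All values are deposited on a log2 scale and ran from 1.67 to 14, with array medians from 5.46 to 5.72. They carry no detection calls, and differences that reach the low end understate the fold. Of 17720 genes, limma called 12.2% higher and 13.6% lower in marrow-derived than in white adipocytes, 8.71% higher and 11.7% lower in marrow-derived than in brown adipocytes, and 3.87% higher and 5.34% lower in white than in brown adipocytes. The share of called genes that were higher was 47.4% for marrow-derived against white, or 36.6% once each array was centred on its median, and 42.7% for marrow-derived against brown, or 28.5% once centred. That centring moved the median log2 difference over all genes to -0.24 and -0.17 in these comparisons, against -0.07 and 0.02 with the deposited scaling.

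Markers were checked before the kinase genes were read. The general adipocyte markers Adipoq, Fabp4 and Pparg stood between 11.6 and 13.7 on all 6 arrays. Adipoq was at 12.70 and 11.86 in marrow-derived, 13.22 and 13.24 in white and 13.01 and 13.15 in brown adipocytes. The other measured markers of that list reached lower in marrow-derived adipocytes. Lep was at 10.07 and 10.55 there against 12.99 and 12.97 in white, Cidec at 12.0 and 10.7 against 13.1 and 13.1, and Retn at 12.70 and 11.25 against 13.15 and 13.49. Lep and Cidec were called lower than in white adipocytes. The brown marker Ucp1 stood at 7.68 and 4.93 in marrow-derived and 6.43 and 4.84 in white adipocytes, against 13.58 and 13.53 in brown adipocytes. All 12 endothelial markers were called higher in marrow-derived than in white adipocytes, beside 12.2% of all genes. Against brown adipocytes 2 of the 12 were called higher in marrow-derived (8.71% of all genes) and 11 lower in white adipocytes (5.34%). The endothelial markers had a mean log2 level of 11.3 and 11.9 in marrow-derived, 8.25 and 7.25 in white and 10.8 and 10.4 in brown adipocytes. The mean of 12 macrophage markers was 10.9 (GFP) and 8.58 (LacZ) in marrow-derived adipocytes, against 11.1 and 9.73 in white and 8.52 and 8.06 in brown adipocytes. By limma 0 of the 12 were called between marrow-derived and white adipocytes, where 1 (Mertk) had an unadjusted p under 0.05. All genes gave 12.2% higher and 13.6% lower there. Smooth muscle markers, 6 in number, had means of 9.38 and 9.95 in marrow-derived, 8.10 and 8.06 in white and 8.08 and 7.92 in brown adipocytes. Of these 6, 4 were called higher in marrow-derived than in white adipocytes, beside 12.2% of all genes. The mean of 10 fibroblast markers was 10.1 and 9.94 in marrow-derived, 9.45 and 8.39 in white and 8.28 and 7.70 in brown adipocytes. The mean of 6 mesothelial markers was 8.08 and 6.07 in marrow-derived, 7.11 and 7.16 in white and 3.85 and 4.15 in brown adipocytes. Of these, 4 were called higher in marrow-derived and 2 higher in white than in brown adipocytes (8.71% and 3.87% of all genes). The plot of marker means shows that endothelial genes were low in white adipocytes alone among the 3 groups. Macrophage means differed as much between the GFP and LacZ arrays as between groups, and both brown arrays lay below every other array. All 12 macrophage markers had a lower group mean in brown than in either other group.

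**Figure D1:**
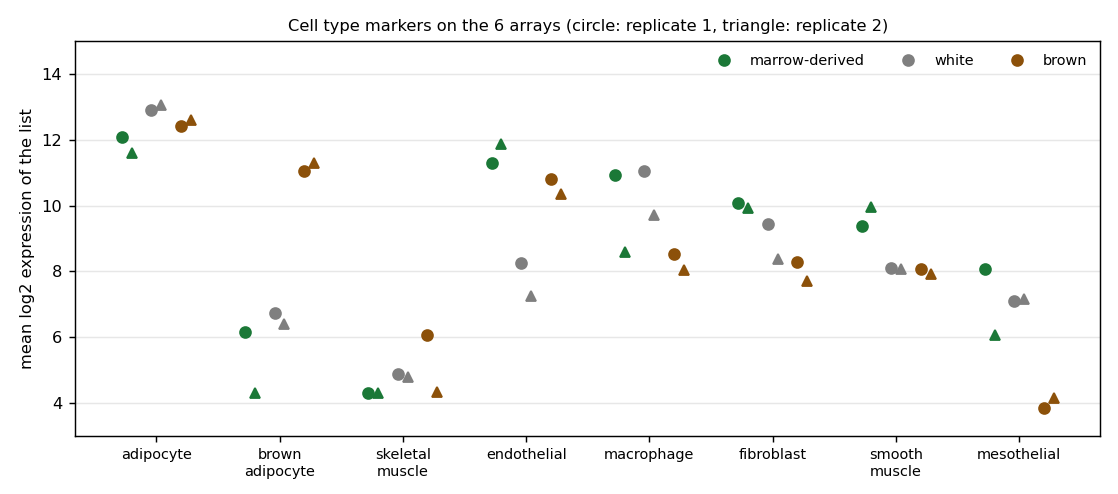
Mean log2 expression of 8 lists of cell type markers (x axis) on each of the 6 arrays (y axis), with circles for replicate 1 and triangles for replicate 2. Endothelial means were 11.3 and 11.9 in marrow-derived and 8.25 and 7.25 in white adipocytes, and the macrophage mean was 10.9 (GFP) and 8.58 (LacZ) in marrow-derived adipocytes.

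Of the 6 tested subunit genes, Prkaa2 and Prkag2 were called lower in marrow-derived adipocytes than in both other adipocyte types. The catalytic alpha2 gene Prkaa2 was 11-fold lower than in white and 16.5-fold lower than in brown adipocytes, while alpha1 (Prkaa1) differed by 0.46 or less on the log2 scale. The nucleotide-binding gamma2 gene Prkag2 was 2.76-fold and 4.16-fold lower. The scaffold gene Prkab1 was 3.60-fold higher than in white adipocytes. Counting the 8 genes other than Prkag3, 3 were called lower and 1 higher in marrow-derived than in white adipocytes, where the background was 13.6% and 12.2% of all genes. Against brown adipocytes 3 were called lower and 0 higher, with a background of 11.7% and 8.71%, and 0 were higher at an unadjusted p under 0.05. This last count became 1 in several alternative fits, among them eBayes run with trend and robust options and a block for replicate number. Between white and brown adipocytes 1 gene, Prkab1, was called lower in white and 0 were called higher, with a background of 5.34% and 3.87%, and 1 gene (Prkab2) was higher at an unadjusted p under 0.05. The median log2 difference over the 8 genes was -0.55 in the first, -0.51 in the second and -0.20 in the third of these comparisons, beside medians of -0.07, 0.02 and 0.02 over all genes.

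**Figure D2:**
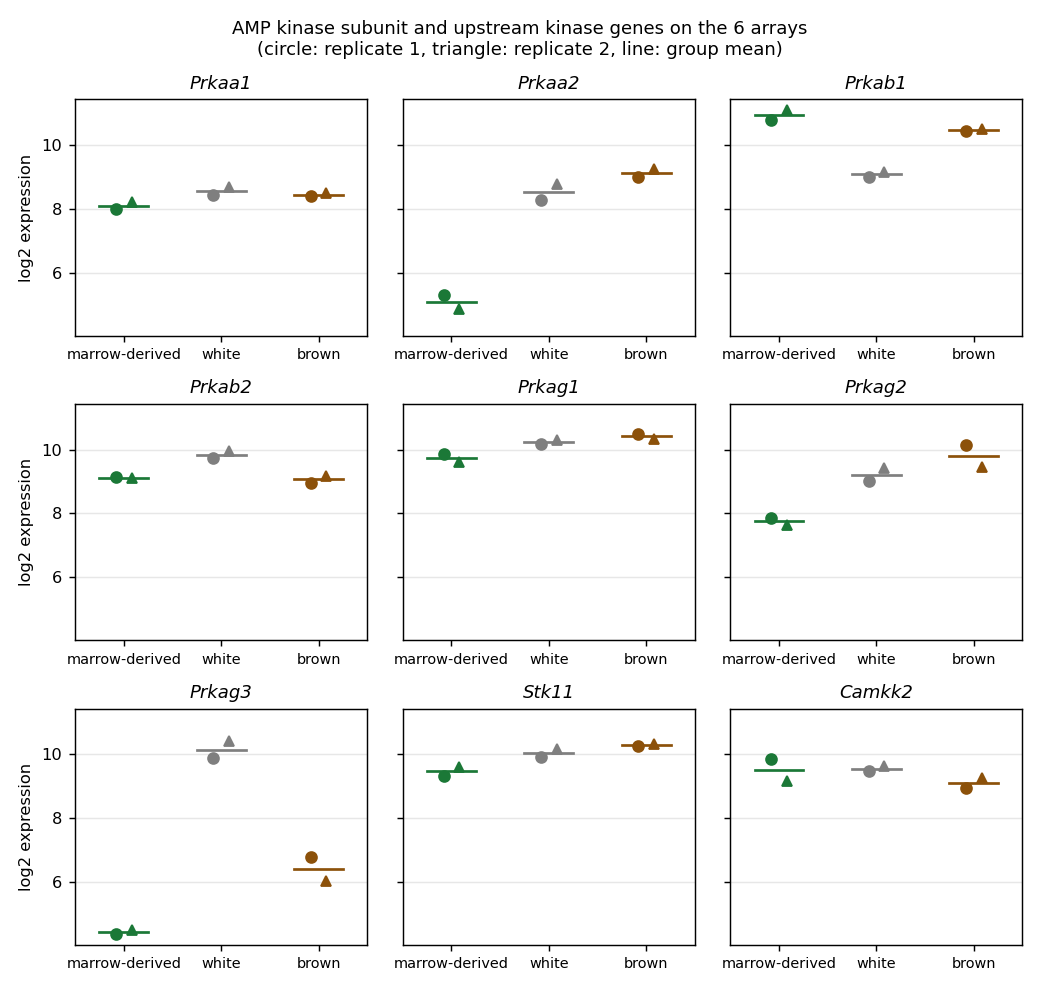
Log2 expression (y axis) of the 7 AMPK subunit genes and of Stk11 and Camkk2 in marrow-derived, white and brown adipocytes (x axis), with a circle for replicate 1, a triangle for replicate 2 and a line at the group mean. Prkaa2 sat at 5.30 and 4.85 in marrow-derived adipocytes and at 8.28 or higher on the other 4 arrays, while Prkag3 was highest in white adipocytes, at 9.87 and 10.40.

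Of the catalytic isoforms, Prkaa2 was called lower in marrow-derived adipocytes than in both other types, and Prkaa1 was not called. The stretches of genome just before their start sites are shown as a description. A link between their letters and the array values was not tested. These are the 250 bases before the start of each gene on its own strand, from RefSeq (build GRCm38.p6). Prkaa1 lies on the plus strand at chr15:5143611-5143860 and Prkaa2 on the minus strand at chr4:105109899-105110148. Capitals mark GC boxes (GGGCGG on either strand, a motif bound by Sp1-family factors), and overlapping matches run together.
Prkaa1: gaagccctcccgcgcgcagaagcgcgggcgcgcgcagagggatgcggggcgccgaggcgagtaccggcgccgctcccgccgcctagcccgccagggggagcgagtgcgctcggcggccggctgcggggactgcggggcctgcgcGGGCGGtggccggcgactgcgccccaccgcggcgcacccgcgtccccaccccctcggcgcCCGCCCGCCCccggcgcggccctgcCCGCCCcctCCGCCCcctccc
Prkaa2: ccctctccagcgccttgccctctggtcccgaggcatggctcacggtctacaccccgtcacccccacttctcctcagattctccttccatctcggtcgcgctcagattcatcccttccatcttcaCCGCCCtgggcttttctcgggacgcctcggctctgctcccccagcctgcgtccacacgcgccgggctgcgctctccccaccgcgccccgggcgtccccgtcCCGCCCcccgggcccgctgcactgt

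The Prkaa1 window held 45 CG dinucleotides and was 85.2% G and C, against 24 and 70.0% in the Prkaa2 window. The medians over 32851 RefSeq promoter windows were 6 and 52.4%. GC boxes were counted 5 times in the Prkaa1 window and 2 times in the Prkaa2 window, and 32.7% of all windows held at least 1. Neither window held the letters CCAAT or the nuclear receptor motif AGGTCA on either strand, which 33.9% and 14.02% of all windows did. These counts describe letters in a fixed window and show no binding.

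Prkaa2 encodes the alpha2 catalytic subunit. Its log2 level was 5.30 (GFP) and 4.85 (LacZ) in marrow-derived adipocytes, against 8.28 and 8.79 in white and 9.0 and 9.23 in brown adipocytes. Both marrow-derived arrays lay more than 2 log2 units below every other array, and the groups did not overlap. The difference was -3.46 ± 0.26 from white (limma SE, 2 arrays per group, adjusted p = 0.00353) and -4.04 ± 0.26 from brown adipocytes (adjusted p = 0.00248). White adipocytes were not called different from brown adipocytes (-0.58 ± 0.26, adjusted p = 0.241, 95% confidence interval -1.25 to 0.08). Both calls against marrow-derived adipocytes were kept with any 1 array left out. The other probe sets of the gene gave smaller differences in the same direction. The second had 4.82 and 3.64 in marrow-derived, 5.79 and 6.11 in white and 6.58 and 6.83 in brown adipocytes, and was called lower in both comparisons. The third, the dimmest, differed by -1.15 from white (adjusted p = 0.11) and -1.62 from brown adipocytes (adjusted p = 0.0529).

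Prkaa1, the alpha1 catalytic subunit, varied least of the 9 genes. Its level was 7.98 and 8.20 in marrow-derived, 8.42 and 8.68 in white and 8.4 and 8.48 in brown adipocytes. No difference between groups was called. The 95% interval of the difference was -0.92 to 0.00 against white and -0.81 to 0.11 against brown adipocytes, so a value up to 0.92 log2 units lower in marrow-derived adipocytes is within it. Only 1 probe set of this gene was measured.

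To ask whether isoforms of 1 subunit changed unequally, the log2 difference between their probe sets was taken within each array and compared between groups. The level of such a difference has no meaning of its own, since each probe set has its own response, but its shift between groups does. Prkaa2 minus Prkaa1 shifted by -3.0 in marrow-derived against white and by -3.69 in marrow-derived against brown adipocytes, with within-group SDs of 0.36 and 0.34 (n = 2). For Prkaa2 with Prkaa1, Prkab2 with Prkab1 and Prkag2 with Prkag1, each exact two-sided permutation p was 0.333, the smallest that 2 arrays against 2 can give (0.333 after Benjamini-Hochberg adjustment over these 9 comparisons). This test could not pass a threshold of 0.05 in this design. Prkag3 minus Prkag1 shifted by -5.21 in marrow-derived against white, -1.31 in marrow-derived against brown and 3.90 in white against brown adipocytes, given as a description with no test.

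**Figure D3:**
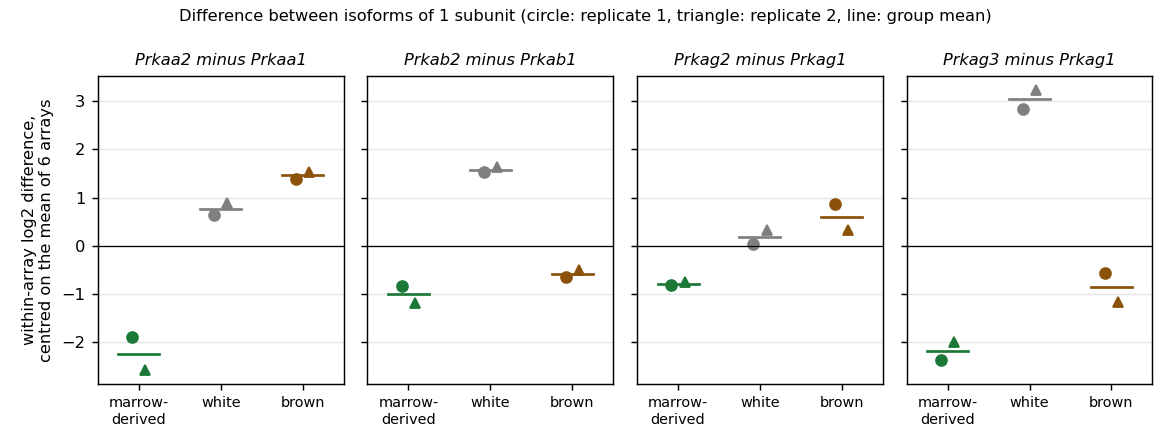
Log2 difference between isoforms of 1 subunit within each array (y axis, centred on the mean of the 6 arrays) for 4 isoform pairs in marrow-derived, white and brown adipocytes (x axis), with circles for replicate 1, triangles for replicate 2 and lines at group means. Prkaa2 minus Prkaa1 lay 3.0 lower in marrow-derived than in white adipocytes, and Prkab2 minus Prkab1 lay 2.58 lower.

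The beta subunits link alpha to gamma, and each beta gene was called between marrow-derived and white adipocytes, Prkab1 higher and Prkab2 lower. Prkab1 had levels of 10.77 and 11.09 in marrow-derived, 9.01 and 9.15 in white and 10.43 and 10.51 in brown adipocytes. The order was marrow-derived, brown, white, and the upper pair was not separated by the test. Prkab1 was called higher in marrow-derived than in white adipocytes (1.85 ± 0.18, adjusted p = 0.00469) and lower in white than in brown adipocytes (-1.39 ± 0.18, adjusted p = 0.0164). Against brown adipocytes the marrow-derived arrays were 0.46 ± 0.18 higher (adjusted p = 0.14, 95% interval 0.00 to 0.92). The call against white held without any 1 array, while the call between white and brown adipocytes was lost without white replicate 1 (adjusted p = 0.0651), white replicate 2 (0.0562), brown replicate 1 (0.133) or brown replicate 2 (0.111).

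The Prkab1 calls rest on 1 of its 2 probe sets. The dimmer probe set had 6.41 and 7.22 in marrow-derived, 6.61 and 6.75 in white and 7.61 and 7.98 in brown adipocytes. There the marrow-derived arrays spanned the white arrays, with a difference of 0.14 (adjusted p = 0.797). They lay below the brown arrays, with a difference of -0.98 (adjusted p = 0.0866). White arrays lay below brown arrays by both probe sets, at -1.12 by the dimmer one with no call (adjusted p = 0.0961). The 12 endothelial markers had the same order of group means as the brighter Prkab1 probe set, and their part in its differences was not tested. Fewer cells of a type and less RNA per cell cannot be told apart in these pooled samples.

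Prkab2, the beta2 scaffold, stood at 9.13 and 9.09 in marrow-derived, 9.72 and 9.96 in white and 8.96 and 9.18 in brown adipocytes. Marrow-derived and brown arrays overlapped, and both groups lay below the white arrays, but the gene was not called between white and brown adipocytes (0.77 ± 0.18, adjusted p = 0.0615). The gene was called lower in marrow-derived than in white adipocytes (-0.73 ± 0.18, adjusted p = 0.0368), but it lost that call when any 1 of the 6 arrays was left out, with adjusted p from 0.0711 to 0.17. A second probe set showed a larger difference, at 6.28 and 6.70 in marrow-derived against 8.67 and 8.75 in white adipocytes, and was called lower too. The shift of Prkab2 minus Prkab1 was -2.58 between marrow-derived and white adipocytes, 2.16 between white and brown adipocytes and -0.42 between marrow-derived and brown adipocytes, which turned to 0.15 with the second probe set of each gene.

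The gamma subunits sense adenine nucleotides, and here the widely expressed gamma1 gene differed least. Prkag1 was at 9.87 and 9.61 in marrow-derived, 10.19 and 10.31 in white and 10.50 and 10.34 in brown adipocytes. It was not called in any comparison. The differences were -0.51 ± 0.18 from white (adjusted p = 0.0985) and -0.68 ± 0.18 from brown adipocytes (adjusted p = 0.0541). The comparison with brown adipocytes was called once arrays were centred on their medians (-0.87, adjusted p = 0.0306). It was also called with the deposited scaling when eBayes was run with trend and robust options (adjusted p = 0.0368).

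Prkag2 encodes gamma2, the subunit whose human gene is mutated in a heart disease with glycogen storage. It had 7.85 and 7.65 in marrow-derived, 9.0 and 9.43 in white and 10.15 and 9.45 in brown adipocytes. The marrow-derived arrays were lowest and did not overlap either group, while white and brown arrays were not separated by the test (-0.59 ± 0.30, adjusted p = 0.285). The difference was -1.47 ± 0.30 from white (adjusted p = 0.0221) and -2.06 ± 0.30 from brown adipocytes (adjusted p = 0.0118). The first call was lost without the LacZ array (adjusted p = 0.071) or white replicate 2 (0.104), and the second without brown replicate 1 (0.0651) or brown replicate 2 (0.0511). Of its 4 probe sets 2 were called lower in each of these comparisons, the second gave -0.74 and -1.26 without a call, and the dimmest, at 3.25 to 3.96 on all 6 arrays, showed -0.34 and -0.01. Prkag2 minus Prkag1 shifted by -0.96 against white and -1.38 against brown adipocytes.

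Prkag3, the gamma3 gene of glycolytic skeletal muscle, had the widest range of the 9 genes, 6.04 log2 units. Its level was 4.36 and 4.48 in marrow-derived, 9.87 and 10.40 in white and 6.79 and 6.02 in brown adipocytes. White adipocytes were highest, brown adipocytes intermediate and marrow-derived adipocytes lowest, and no groups overlapped. The log2 difference was -5.72 from white and -1.99 from brown adipocytes, and white adipocytes stood 3.73 above brown ones. The gene was chosen with this pattern known, so these values carry no test, and it had 1 probe set, so no second measure exists among these values.

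Skeletal muscle markers were read beside Prkag3. The mean of 16 markers was 4.30 and 4.30 in marrow-derived, 4.88 and 4.80 in white and 6.07 and 4.32 in brown adipocytes. The muscle creatine kinase Ckm was at 3.93 and 3.98 in marrow-derived, 4.40 and 4.50 in white and 5.31 and 4.41 in brown adipocytes, and the myosin Myh4 stayed between 3.18 and 3.66 on all 6 arrays. Of the 16 markers Acta1 and Pvalb were called lower and Mylpf higher in marrow-derived than in white adipocytes. Neither share exceeded the 13.6% lower and 12.2% higher of all genes. Mylpf was at 7.44 and 7.82 in marrow-derived, 5.62 and 4.69 in white and 8.30 and 6.58 in brown adipocytes. Acta1, skeletal actin, was at 5.78 and 6.39 in marrow-derived, 8.959 and 9.997 in white and 9.44 and 6.91 in brown adipocytes. Pvalb, a calcium buffer of fast muscle fibres, was at 3.73 and 4.27 in marrow-derived, 8.03 and 6.57 in white and 5.96 and 3.73 in brown adipocytes. Between marrow-derived and white adipocytes Acta1 and Pvalb had the direction of Prkag3, and Mylpf had the opposite one. At an unadjusted p under 0.05 (limma) 3 were lower, Acta1, Pvalb and Tnnc2, and 1 higher, Mylpf. Of all 16 markers 6 had a higher mean in marrow-derived than in white adipocytes. Their median log2 difference was -0.23, beside -0.07 over all genes. The part of muscle markers in the Prkag3 difference was not tested.

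**Figure D4:**
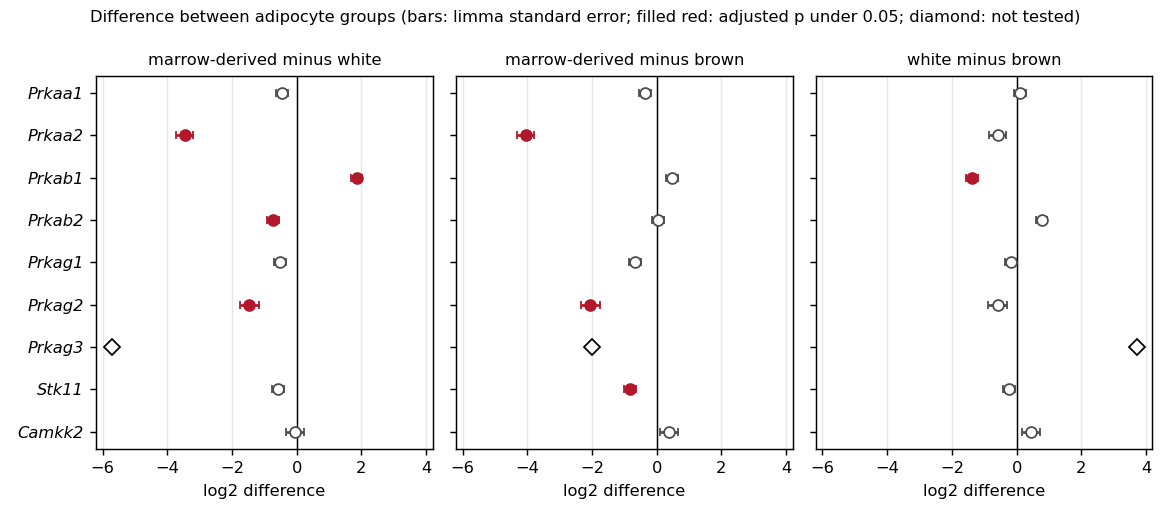
Log2 difference between groups (x axis) for the 9 genes (y axis) in the 3 comparisons. Bars are limma standard errors, red filled points have an adjusted p under 0.05, and the open diamond marks Prkag3, which was not tested; Prkaa2 lay at -3.46 and -4.04 in the comparisons of marrow-derived adipocytes with white and with brown.

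Of the upstream kinases, Stk11 was called in 1 comparison and Camkk2 in none by its main probe set. Stk11, which encodes LKB1, was at 9.32 and 9.60 in marrow-derived, 9.92 and 10.17 in white and 10.25 and 10.30 in brown adipocytes. It was called lower in marrow-derived than in brown adipocytes (-0.82 ± 0.19, adjusted p = 0.0372) and not against white (-0.58 ± 0.19, adjusted p = 0.0767). The call was lost without the GFP array (adjusted p = 0.0982), either white array (0.0554 each), brown replicate 1 (0.141) or brown replicate 2 (0.191). A second Stk11 probe set lay between 3.54 and 4.17 on all 6 arrays and showed no call.

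Camkk2, the calcium-dependent activator, was at 9.84 and 9.15 in marrow-derived, 9.46 and 9.61 in white and 8.95 and 9.25 in brown adipocytes. The marrow-derived arrays spanned the white ones and no comparison was called, with -0.04 ± 0.28 against white (adjusted p = 0.929). Its second probe set read otherwise, at 8.05 and 7.88 in marrow-derived, 9.08 and 9.44 in white and 8.33 and 8.57 in brown adipocytes, and was called lower in marrow-derived than in white adipocytes (-1.30, adjusted p = 0.0116). The other two probe sets were at -0.76 (adjusted p = 0.186) and -1.29 (adjusted p = 0.0648) against white adipocytes, so all 4 lay below 0 there and differed in size and call. Against brown adipocytes the 4 probe sets differed in sign, at 0.39, -0.49, 0.13 and -0.45, with no call.

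**Figure D5:**
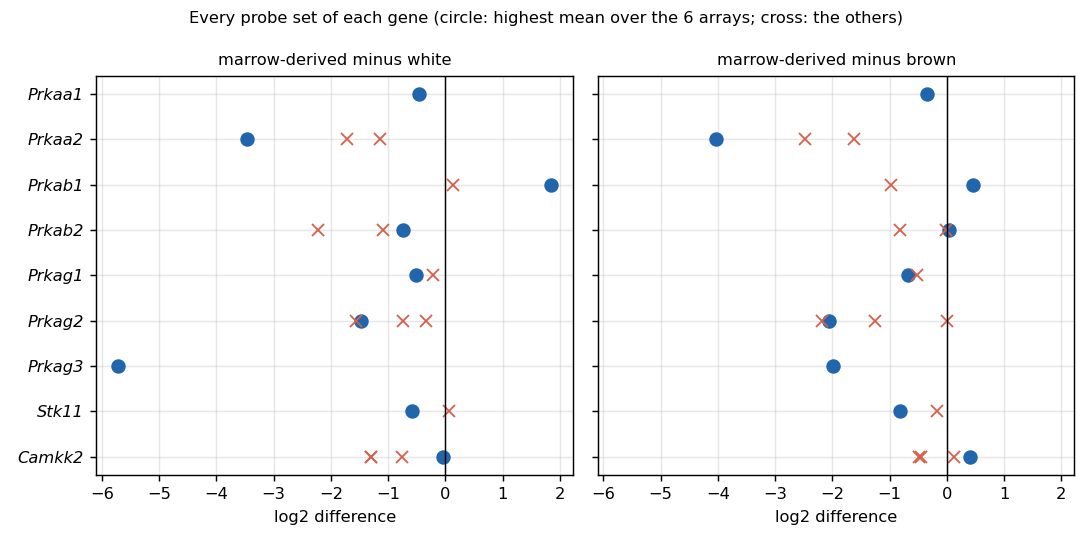
Log2 difference of each of the 22 probe sets (x axis) of the 9 genes (y axis) in marrow-derived against white and against brown adipocytes, with a blue circle for the probe set of highest mean over the 6 arrays and red crosses for the others. The probe sets of Prkaa2 all lay below 0, and those of Prkab1 lay at 1.85 and 0.14 against white adipocytes.

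The rest of the pathway was read from lists of genes, chosen like the 9 genes with earlier results known and described by counts alone. Among partners of LKB1 and of the calcium-dependent kinases, 2 of 5 measured genes were lower in marrow-derived than in white adipocytes and 0 higher (also 0 at an unadjusted p under 0.05), where all genes gave 13.6% lower. Stradb, a pseudokinase that binds and activates LKB1, was at 8.53 and 7.53 in marrow-derived, 9.63 and 9.91 in white and 11.02 and 10.72 in brown adipocytes. It was called 3.33-fold lower than in white (-1.73 ± 0.36, adjusted p = 0.0239) and 7.15-fold lower than in brown adipocytes (-2.84 ± 0.36, adjusted p = 0.00868). The scaffold Cab39l was lower than in white adipocytes (-0.92 ± 0.22, adjusted p = 0.0333). Between white and brown adipocytes 0 were called (1 at an unadjusted p under 0.05), beside 3.87% higher and 5.34% lower of all genes. Stradb was at -1.10 ± 0.36 there (adjusted p = 0.132). Its paralogue Strada differed by -0.31 from white (adjusted p = 0.292).

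LKB1 also activates 12 kinases related to AMPK. In marrow-derived against white adipocytes 2 were called higher and 1 lower, shares near the 12.2% and 13.6% of all genes, with a median of 0.57 beside -0.07 over all genes. Nuak1 was at 9.52 and 10.33 in marrow-derived, 7.59 and 7.29 in white and 8.61 and 8.02 in brown adipocytes, and was called higher than in either group (2.49 ± 0.35, adjusted p = 0.00912, and 1.62 ± 0.35, adjusted p = 0.0328). Snrk was 2.07-fold higher than in white adipocytes (1.05 ± 0.16, adjusted p = 0.0112). Sik2, a salt-inducible kinase abundant in adipocytes, was 3.32-fold lower than in white (-1.73 ± 0.33, adjusted p = 0.0187) and 3.21-fold lower than in brown adipocytes (-1.68 ± 0.33, adjusted p = 0.0252). Against brown adipocytes 1 of the 12 was called higher and 1 lower in marrow-derived adipocytes, beside 8.71% and 11.7% of all genes. Between white and brown adipocytes 0 of the 12 were called, beside 3.87% higher and 5.34% lower of all genes. There 2 were lower in white at an unadjusted p under 0.05.

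Phosphatases and binding partners of AMPK showed calls in both directions. Against white adipocytes 4 of 17 were lower and 1 higher, beside 13.6% and 12.2% of all genes. Against brown adipocytes 4 were lower and 0 higher (1 higher at an unadjusted p under 0.05), beside 11.7% and 8.71% of all genes. Ppp1r3c, a glycogen-targeting subunit of protein phosphatase 1, was at 6.83 and 7.26 in marrow-derived, 8.56 and 8.72 in white and 10.08 and 10.49 in brown adipocytes, and was called in all 3 comparisons (-1.59, -3.24 and -1.65 for white against brown). Sesn2, a stress-induced protein that activates AMPK, was 2.88-fold lower than in white adipocytes (-1.53 ± 0.28, adjusted p = 0.0165), where the phosphatase Ppm1e was 3.27-fold higher (1.71 ± 0.42, adjusted p = 0.0386). Cidea, a lipid droplet protein that binds AMPK beta, stood at 8.53 (GFP) and 3.66 (LacZ) in marrow-derived adipocytes, against 13.16 and 13.15 in brown adipocytes (-7.05 ± 1.57, adjusted p = 0.0346). Ppm1b was 1.99-fold lower than in brown adipocytes (-1.0 ± 0.16, adjusted p = 0.0157). Sesn3 was higher in white than in brown adipocytes (1.23 ± 0.19, adjusted p = 0.0234). In that comparison 1 of the 17 was called higher and 1 lower in white, beside 3.87% and 5.34% of all genes.

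Among direct substrates of AMPK, 9 of 30 measured were called lower and 2 higher in marrow-derived than in white adipocytes, beside 13.6% and 12.2% of all genes. Against brown adipocytes 12 were lower and 1 higher, beside 11.7% and 8.71% of all genes. The medians were -0.24 and -0.58, beside -0.07 and 0.02 over all genes. Gys2, a glycogen synthase, was at 7.03 and 5.14 in marrow-derived, 9.38 and 9.71 in white and 10.74 and 10.99 in brown adipocytes. It was 11-fold lower than in white (-3.46 ± 0.61, adjusted p = 0.0154) and 27.4-fold lower than in brown adipocytes (-4.78 ± 0.61, adjusted p = 0.00881). Ppargc1a, the mitochondrial coactivator PGC-1alpha, was 35.2-fold lower than in brown adipocytes, and the glucose-responsive factor Mlxipl 25.7-fold lower. Tbc1d1, which restrains glucose transporter traffic, was at 10.76 and 11.06 in marrow-derived, 10.04 and 9.57 in white and 9.72 and 9.74 in brown adipocytes and was called higher in both comparisons (adjusted p = 0.0228 and 0.0241). Its relative Tbc1d4 was at 6.54 and 6.52 in marrow-derived, 8.77 and 8.98 in white and 8.79 and 9.01 in brown adipocytes, and was called lower in both (-2.34 and -2.37). The pair was singled out after its values were seen. Between white and brown adipocytes 2 of the 30 were called lower in white, beside 5.34% of all genes. None was called higher (2 at an unadjusted p under 0.05), beside 3.87% of all genes. Those called were Acacb (-2.59 ± 0.47, adjusted p = 0.0339), the mitochondrial acetyl-CoA carboxylase, and Hdac7 (-2.16 ± 0.45, adjusted p = 0.0459).

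Enzymes that interconvert adenine nucleotides, the ligands of the gamma subunits, were lower in 4 of 12 measured genes and higher in 1 against white adipocytes, beside 13.6% and 12.2% of all genes. Against brown adipocytes 4 were lower and 0 higher (1 higher at an unadjusted p under 0.05), beside 11.7% and 8.71% of all genes. Ak1, the cytosolic adenylate kinase, was at 7.93 and 8.37 in marrow-derived, 9.71 and 9.60 in white and 10.60 and 10.58 in brown adipocytes (-1.51 ± 0.20, adjusted p = 0.00835, against white and -2.44 ± 0.20, adjusted p = 0.00379, against brown). Adk, adenosine kinase, was 3.29-fold and 3.02-fold lower. Ak3 was 2.58-fold lower than in white adipocytes. Ak4, a mitochondrial adenylate kinase, was lower than in brown adipocytes both in marrow-derived (-2.30 ± 0.36, adjusted p = 0.0147) and in white adipocytes (-2.06 ± 0.36, adjusted p = 0.0301). Between white and brown adipocytes Ak4 was the 1 of 12 called lower in white, beside 5.34% of all genes. None was called higher there (1 at an unadjusted p under 0.05), beside 3.87% of all genes.

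General adipocyte markers had a median log2 difference of -1.15 from white and -0.51 from brown adipocytes over 6 measured markers. Their mean was 12.1 and 11.6 in marrow-derived, 12.9 and 13.1 in white and 12.4 and 12.6 in brown adipocytes, and Lep (-2.67) and Cidec (-1.76) were called lower in marrow-derived than in white adipocytes. The mean of 8 brown adipocyte markers was 6.16 and 4.31 in marrow-derived, 6.72 and 6.39 in white and 11.1 and 11.3 in brown adipocytes. The order of group means was that of Prkaa2 and Prkag2, but the spacing was not. The median log2 difference of the markers was -1.93 for marrow-derived minus white and -4.51 for white minus brown adipocytes. For Prkaa2 these differences were -3.46 and -0.58, and for Prkag2 -1.47 and -0.59. Of the 8 markers, 2 had a higher mean in marrow-derived than in white adipocytes. The part of these markers, or of a smaller share of adipocyte RNA, in the lower values of Prkaa2, Prkag2 and the lists was not tested. Pparg, a nuclear receptor of fat cells, was at 11.56 and 11.81 in marrow-derived, 11.63 and 12.01 in white and 11.88 and 11.93 in brown adipocytes.

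The genes whose values most resembled the 4 members with a range of 2 log2 units or more were found by Pearson r over the 6 arrays among 4170 other genes with such a range. With 3 groups of 2 arrays, a high r largely means the same order and spacing of 3 group means. For Prkaa2 these were Rxrg (r = 0.9990), Miga2 (0.9985) and Lrrc9 (0.9983), with Rxrg at 4.44 and 3.74 in marrow-derived, 7.32 and 7.81 in white and 8.02 and 8.17 in brown adipocytes. For Prkab1 they were Dysf (0.9974), Efnb1 (0.9961) and Gimap9 (0.9942), and for Prkag2 Tesc (0.9914), Top1mt (0.9907) and Dtnbp1 (0.9889). For Prkag3 they were Tspan17 (0.9989), Gm15972 (0.9975) and BE949265 (0.9957), with Tspan17 at 8.71 and 8.75 in marrow-derived, 10.60 and 10.80 in white and 9.61 and 9.21 in brown adipocytes.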

How the data were processed

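The table the authors deposited holds log2 values for each probe set and array, unpooled. Per the submitters' processing notes, RMA and Partek were used, with no version, role or order given, and the log base was taken from the values. RMA corrects background, equalizes array distributions and summarizes probes, which can shrink small differences near background. Of 43057 probe sets 33565 had 1 symbol in the platform annotation, 857 several and 8635 none. Each of 17720 genes was represented by its probe set of highest 6-array mean. The text names all 9 genes, up to 3 called genes per list and comparison, and the 3 most similar genes.

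Group means of all 6 arrays were fitted with limma 3.58.1 in R 4.3.3, with two-sided p-values adjusted by Benjamini-Hochberg across the 17720 genes and called under 0.05; 3 residual and 2.35 prior degrees of freedom remained. The fit was tested on simulated data. The members, lists and tests were chosen with earlier results of these data known. Listed genes with no usable probe set were not analysed here. The number of arrays limits the precision. Alternatives changed scaling, filter, moderation, samples, replicate block and probe set.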

Additional observations from a re-analysis of the deposited data

How the results depend on the processing

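All called members kept their direction under every alternative fit of their main probe set, and Prkaa2 (marrow-derived against white and against brown) and Prkab1 (marrow-derived against white) kept their calls in all 12 such fits. Without moderation limma's linear model called 555 genes (marrow-derived against white), 961 (marrow-derived against brown) and 0 (white against brown; 3880 at an unadjusted p under 0.05), with 2, 1 and 0 of the 8 members. With the replicate block it called 4028, 3066 and 1264 genes and 3, 3 and 1 members; Prkab2 lost its call (adjusted p = 0.0509) and no other member's call changed. Replicate numbers are not said to pair samples: differences between replicates 1 and 2 correlated over genes at 0.21, -0.0038 and 0.28 between groups. With only the 4 arrays compared, marrow-derived against white gave 2727 genes. With 1 array left out, genes called ranged from 1749 to 4281, 300 to 3121 and 5 to 2251, and members called from 2 to 3, 1 to 3 and 0 to 1; the lone array of a group was then assumed to vary like the others. The lowest counts came without white replicate 2 (1749) and without brown replicate 2 (300 and 5); brown replicate 1 gave 476 and 7. The main counts were 4579, 3611 and 1632.

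Some uncalled values changed sign: Prkab2 against brown with median centring (-0.15), with 1 array left out (-0.075 to 0.15, lowest without brown replicate 1) and by its other probe sets (-0.83 and -0.0125), Camkk2 against white with 1 array left out (-0.39 to 0.30; above 0 without the LacZ array, and at 0.03 without replicate 2 of white) and against brown by 2 other probe sets (-0.49 and -0.45), and Prkaa1 in white against brown with 1 array left out (-0.022 to 0.24, lowest without white replicate 2). By other probe sets so did Prkab1 against brown (-0.98), Stk11 against white (0.072) and Prkag2 in white against brown (0.33). Shifts were also taken with second probe sets, where Prkaa1 and Prkag3 kept their only probe set. Prkaa2 minus Prkaa1 then shifted by -1.26, -2.13 and -0.86 in the 3 comparisons, and Prkab2 minus Prkab1 by -2.35, 0.15 and 2.5. Prkag2 minus Prkag1 shifted by -0.53 and -0.74 for marrow-derived against white and brown, and Prkag3 minus Prkag1 by -5.51 against white. The cause of these changes was not tested.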

Other observations

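The genes on either side of Prkag3 in RefSeq order did not share its range. Cyp27a1, a sterol hydroxylase, stood at 10.10 (GFP) and 7.92 (LacZ) in marrow-derived, 10.23 and 10.19 in white and 10.45 and 10.08 in brown adipocytes, and was not called in any comparison (adjusted p = 0.271, 0.259 and 0.973, limma). The Wnt ligand gene Wnt6 stayed between 3.94 and 4.2 on all 6 arrays. These neighbours were chosen after the values of Prkag3 were seen.

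Mertk, a receptor for apoptotic cells, is listed among the macrophage markers. Of these 12 it was the 1 called higher in marrow-derived than in brown adipocytes, beside 8.71% of all genes. All 12 lay above 0 in that comparison, with a median log2 difference of 1.57 beside 0.02 over all genes. Mertk was at 10.21 and 10.10 in marrow-derived, 9.66 and 9.51 in white and 8.70 and 8.97 in brown adipocytes. Its GFP and LacZ arrays lay close together, where the mean of the 12 markers was 10.9 (GFP) and 8.58 (LacZ), and it was singled out after its values were seen.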
